A study of Mus musculus with 15 samples.

Results

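The granulocyte, eosinophil and mast cell genes are 38 genes that mark blood cells filled with granules, chosen by symbol from a fixed list. Of these, 37 were found among the 19464 rows of the liver RNA-seq table, 1 row each, and Ly6g was not in it. They comprise 5 genes of neutrophil primary granules and promyelocytes, 8 of the granules formed later, 2 calgranulins, 2 transcription factors, 5 genes of mature neutrophils found of 6, 7 eosinophil genes, 6 mast cell and basophil genes and 2 lipoxygenases. The libraries came from whole livers of mice without Stab1, which encodes the scavenger receptor Clever-1 (stabilin-1), and of wildtype mice. There were 4 Stab1-/- and 4 wildtype libraries at the age of 2 weeks, and 3 Stab1-/- and 4 wildtype libraries at embryonic day E17.5. Every group had the mixed background C57BL/6N;129SvJ, and the knockout removes Clever-1 from all cells, so that no cell type of the liver is singled out. The study's methods give as many mice in each group as there are libraries, and whether the wildtype mice were littermates is not given in the sources used here.

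Each library had 9659 to 10964 reads counted on genes, in units of 1000 reads. Stab1 itself had 1244 to 1868 reads in wildtype and 301 to 443 reads in Stab1-/- libraries at E17.5, and 579 to 941 against 68 to 119 at 2 weeks, so the groups did not overlap at either stage. The tissue label fits the hepatocyte marker albumin (Alb), which had a mean of 42173 RPKM in wildtype and 47523 RPKM in Stab1-/- libraries at E17.5. At 2 weeks the means were 57001 RPKM and 44441 RPKM. The study's own list of genes higher in Stab1-/- liver at E17.5 also holds genes named for intestine (Alpi, Fabp2) and enteric smooth muscle (Actg2). Whether other tissue was present in those samples was not tested, nor its part in the values at E17.5 and the differences between stages. RPKM, the deposited level, is the number of reads per kilobase of gene length, scaled to the reads counted in the library. In whole liver, fewer cells of a type and less RNA in each cell cannot be told apart.

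Neutrophils, eosinophils, basophils and mast cells arise from myeloid progenitors, which in the fetus are held largely in the liver, and in the bone marrow after birth. A promyelocyte first makes the primary granule proteins, the later granules and the calgranulins follow as the cell matures, and surface receptors such as Csf3r and Cxcr2 are found on the cell that leaves for the blood. C/EBP family factors drive granulocyte genes, PU.1 drives myeloid genes broadly, and GATA factors act in eosinophils, basophils and mast cells.

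In wildtype fetal liver the calgranulins stood far above the other members. S100a8 and S100a9 encode the subunits of calprotectin, a calcium and metal binding protein that fills the cytosol of neutrophils. S100a9 ranked 9 to 16 among all genes by RPKM in the 4 wildtype libraries at E17.5, and S100a8 ranked 13 to 21. In the Stab1-/- libraries of that stage the ranks were 21 to 22 and 27 to 30. Reads on both genes together made up 0.178% to 0.309% of the wildtype libraries and 0.12% to 0.139% of the Stab1-/- libraries. After the calgranulins, the order of mean levels in wildtype at E17.5 was Ngp, Camp, Ltf, Prg2, Mpo, Prtn3 and Elane, with 486 ± 53.2 RPKM (SD, n = 4) for Ngp and 72.6 ± 9.62 for Elane. The ranges of Ngp (442 to 561) and Camp (337 to 495) overlapped, as did those of Prg2, Mpo, Prtn3 and Elane. Those of Camp and Ltf, and of Ltf and Prg2, were apart. Within each of the wildtype libraries Ngp lay above Camp, Mpo above Prtn3 and Prtn3 above Elane, while Prg2 and Mpo changed places between libraries. All 37 members together took 0.404% to 0.566% of the wildtype and 0.3% to 0.337% of the Stab1-/- reads at E17.5. At 2 weeks the shares were 0.00502% to 0.012% and 0.0139% to 0.026%, so the genotype with the larger share differed between the stages.

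At E17.5 a single member, Ear6, passed the test across all genes, with a lower level in the Stab1-/- livers. Most other members had values below 0 that did not pass, and 3 genes of mast cells and basophils (Mcpt8, Hdc and Ms4a2) had values above 0. With 35 members tested (a gene was tested when its reads passed the filter of edgeR), 32 had a log2 fold change below 0, with a median of -0.35, where 49.7% of all 13388 genes tested lay below 0 and their median was 0.00. Ear6 was the only one called lower at an adjusted P under 0.05, against 0.172% of all genes, and no member was called higher, against 0.194%. At an unadjusted P under 0.05, 20 members were lower and none higher, beside 5.95% and 6.95% of all genes. DESeq2 called 8 members lower and none higher, where it called 0.839% and 0.801% of all genes. In 21 members every Stab1-/- library lay below every wildtype library in RPKM, which 9.3% of all genes did, and in no member did every one lie above, which 2.91% did. The members share their cells of origin and these counts are not those of independent genes.

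Ear6 belongs to the eosinophil-associated ribonucleases, small secreted enzymes kept in eosinophil granules. The 4 wildtype libraries had 7.05, 13.4, 14.5 and 19.9 RPKM (56, 103, 117 and 157 reads), and the 3 Stab1-/- libraries had 0.773, 0.907 and 1.79 RPKM (6, 7 and 14 reads). The groups were far apart, with the highest Stab1-/- library well under the lowest wildtype library. The log2 fold change was -3.48 with an SE of 0.41 and an adjusted P of 0.00696, and Ear6 passed the filter through its wildtype libraries. It was called in each of the 15 alternative fits of this comparison, with log2 fold changes from -3.93 to -3.24 and adjusted P values from 1.58e-13 to 0.044. At 2 weeks Ear6 was at or under 3 reads in all 8 libraries, so no genotype difference could be detected at that depth.

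The Ear genes are near copies, and the sequences show how far their reads can be told apart. The first 120 coding bases of Ear6 and of its relatives Ear1 and Ear2, the best expressed of the family here, are printed 5′ to 3′ from GENCODE transcripts on GRCm38, with the 16 positions at which the 3 genes are not all alike in capitals.
Ear6: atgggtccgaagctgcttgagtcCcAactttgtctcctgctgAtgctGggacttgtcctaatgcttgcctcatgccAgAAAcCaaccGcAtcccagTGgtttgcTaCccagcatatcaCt
Ear1: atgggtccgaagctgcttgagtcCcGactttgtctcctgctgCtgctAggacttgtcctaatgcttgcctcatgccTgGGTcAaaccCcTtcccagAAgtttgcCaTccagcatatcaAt
Ear2: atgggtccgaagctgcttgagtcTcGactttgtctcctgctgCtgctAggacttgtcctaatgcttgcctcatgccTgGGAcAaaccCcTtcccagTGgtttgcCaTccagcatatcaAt
The genes lie at chr14:51853699-51854643, plus strand (Ear6), chr14:43818765-43875517, minus strand (Ear1) and chr14:44102654-44103534, plus strand (Ear2). Over the whole coding sequence of 468 bases, Ear6 was identical to Ear1 at 87.4% of bases and to Ear2 at 88.2%, while Ear1 and Ear2 shared 95.7%. Of the 50-base windows of the Ear6 transcript, 1.07% also occurred in Ear1 and 1.07% in Ear2, where 23.8% of the Ear1 windows occurred in Ear2. Only uniquely mapped reads were counted, so by this comparison the values of Ear1 and Ear2 are less certain than that of Ear6. Ear7, a further gene of the family, was not among the sequences compared, so Ear6 was not checked against it. At E17.5 Ear7 had means of 1.81 RPKM in wildtype and 2.63 RPKM in Stab1-/- libraries (log2 fold change 0.60, SE 0.71, adjusted P = 0.738). Ear1 also shares an exon with the pseudogene Ear-ps9 on the same strand.

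Ear6 was lower than Ear1 and Ear2 in every E17.5 library of both genotypes, and further below them in the Stab1-/- libraries. Such a ratio within a library needs no scaling between libraries. The Ear6 level was 0.503 to 0.88 of that of Ear2 in the wildtype and 0.079 to 0.203 in the Stab1-/- libraries at E17.5, and 0.623 to 0.925 against 0.115 to 0.182 of that of Ear1. Neither ratio overlapped between genotypes. Ear6 lies 20.7 Mb from the end of Stab1 on the same chromosome. Of the 23 genes called lower at E17.5, 18 could be placed and 6 of them were on chromosome 14, and of the 26 called higher 25 could be placed and 7 were on it. That is 33.3% and 28%, where 3.46% of the tested genes that could be placed were on chromosome 14. Of the other members there, none was called, with log2 fold changes of -0.92 for Ear1 and -0.85 for Ear2, 12.7 and 12.9 Mb from Stab1, -0.49 for Cebpe at 23.5 Mb, and -0.35 for Ctsg and 0.62 for Mcpt8, both at 24.9 Mb. The part of this position in the result was not tested.

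**Figure D1:**
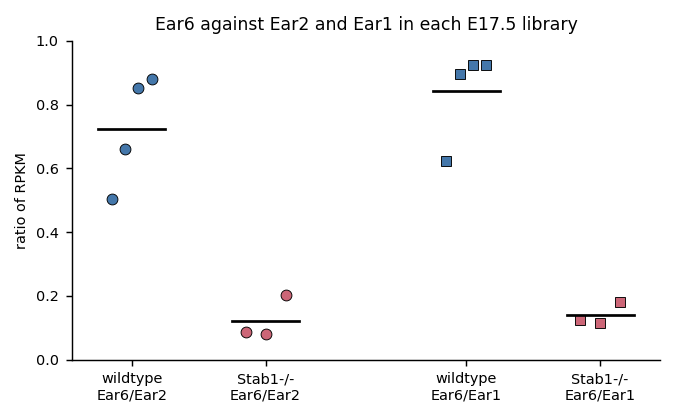
Ratio of the RPKM of Ear6 to that of Ear2 (circles) and of Ear1 (squares) in each E17.5 library, with a point per library and a line at the group mean. The wildtype libraries (n = 4) lie at 0.503 or above and the Stab1-/- libraries (n = 3) at 0.203 or below.

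The other eosinophil genes had log2 fold changes from -1.05 to -0.66 at E17.5, and none was called. Prg2 encodes the major basic protein of the eosinophil granule, and Prg3 its homologue. Prg2 had 74.7, 99.6, 105 and 121 RPKM in wildtype and 51.5, 59.1 and 58.9 RPKM in Stab1-/- libraries (log2 fold change -0.76, SE 0.14, adjusted P = 0.0678). Prg3 had 5.68, 6.65, 5.09 and 4.83 RPKM in wildtype and 3.1, 2.32 and 2.29 RPKM in Stab1-/- libraries (log2 fold change -1.05, SE 0.21, adjusted P = 0.0911). Neither gene overlapped between genotypes. Ear1 had 11.3, 14.9, 15.7 and 21.5 against 6.17, 7.89 and 9.83 RPKM (log2 fold change -0.92, SE 0.23, adjusted P = 0.155). Ear2 had 14, 20.2, 16.9 and 22.6 against 9.03, 11.5 and 8.83 RPKM (log2 fold change -0.85, SE 0.18, adjusted P = 0.111). Both lay lower in every Stab1-/- library than in any wildtype library. Eosinophil peroxidase (Epx) had a log2 fold change of -0.66 and did not overlap either, while Ear10 had at most 1 read in any library and was not tested. Over the 6 tested eosinophil genes the median log2 fold change was -0.89.

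Both calgranulins had values below 0 at E17.5, and neither was called. S100a8 had 3041, 2919, 1740 and 1887 RPKM in the wildtype libraries at E17.5 and 1187, 1259 and 1371 RPKM in the Stab1-/- libraries. Its mean was 2397 ± 678 (SD, n = 4) against 1272 ± 92.7 (SD, n = 3), with log2 fold change -0.86, SE 0.21, adjusted P = 0.152. S100a9 had 3887, 3674, 2259 and 2530 RPKM in wildtype and 1504, 1587 and 1755 RPKM in Stab1-/- libraries (log2 fold change -0.88, SE 0.20, adjusted P = 0.123). Wildtype libraries 1 and 2 were high and libraries 3 and 4 nearer to the Stab1-/- libraries, and still no library of one genotype reached the other. The RPKM of S100a9 was 1.02 to 1.38 times that of S100a8 in all 15 libraries, so both genes moved together from library to library.

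None of the 5 genes of the neutrophil primary granule was called at E17.5. Mpo encodes myeloperoxidase, and Prtn3 and Elane encode the serine proteases proteinase 3 and neutrophil elastase. Mpo had 103, 76.4, 107 and 105 RPKM in wildtype and 96.9, 93.6 and 76.9 RPKM in Stab1-/- libraries (log2 fold change -0.08, SE 0.14, adjusted P = 0.836). Prtn3 had 90.8, 68.8, 83.8 and 77.2 against 62.3, 68.2 and 52.4 RPKM (log2 fold change -0.33, SE 0.13, adjusted P = 0.332). Elane had 82.1, 60.5, 78.2 and 69.4 against 60.9, 65.3 and 51.5 RPKM (log2 fold change -0.23, SE 0.13, adjusted P = 0.485). Mpo and Elane overlapped between genotypes, and the highest Stab1-/- value of Prtn3 lay just under its lowest wildtype value. The remaining 2, cathepsin G (Ctsg) and the progenitor marker Ms4a3, had log2 fold changes of -0.35 and -0.48. The median of the 5 genes was -0.33. Mpo shares an exon with Gm11505 and Prtn3 with Plppr3 on the opposite strand, and the sources used here do not state whether counting used strand.

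All 8 genes of the later granules had log2 fold changes below 0, from -0.51 to -0.14 with a median of -0.26, and none was called. Ngp encodes neutrophilic granule protein, Camp the antimicrobial peptide cathelicidin, Ltf the iron-binding protein lactoferrin and Fcnb the lectin ficolin B. Ngp had 561, 484, 442 and 457 RPKM in wildtype and 387, 473 and 333 RPKM in Stab1-/- libraries at E17.5 (log2 fold change -0.23, SE 0.15, adjusted P = 0.531). Camp had 495, 454, 375 and 337 against 280, 311 and 249 RPKM (log2 fold change -0.51, SE 0.15, adjusted P = 0.228). Ltf had 175, 144, 159 and 174 against 129, 161 and 107 RPKM (log2 fold change -0.23, SE 0.15, adjusted P = 0.523). Ngp and Ltf overlapped and Camp did not. Fcnb had 62.4, 60.9, 47.4 and 53.3 against 37.4, 43.2 and 36.5 RPKM (log2 fold change -0.46, SE 0.12, adjusted P = 0.183), without overlap. The collagenase Mmp8 did not overlap (-0.44), and the gelatinase Mmp9, the surface protein Cd177 and the chitinase-like Chil3 did, with values from -0.28 to -0.14.

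Cebpe and Gfi1 encode transcription factors that neutrophil precursors need in order to mature. Cebpe had 14.6, 12.5, 11.7 and 13.9 RPKM in wildtype and 8.6, 11 and 7.31 RPKM in Stab1-/- libraries at E17.5 (log2 fold change -0.49, SE 0.16, adjusted P = 0.254). Gfi1 had 3.51, 3.64, 3.54 and 3.56 against 2.26, 2.81 and 2.7 RPKM (log2 fold change -0.40, SE 0.13, adjusted P = 0.268). Neither gene overlapped between genotypes, and Gfi1 shares an exon with A430072P03Rik on the opposite strand. Among genes of mature neutrophils, Retnlg (a resistin-like secreted protein) had 39.6, 38.3, 34.7 and 35.5 against 24.3, 27.1 and 26.8 RPKM (log2 fold change -0.45, SE 0.10, adjusted P = 0.134). Itgam, the integrin alpha chain CD11b, had 14.8, 11.6, 13.4 and 14.4 against 10.4, 12.9 and 9.49 RPKM (log2 fold change -0.25, SE 0.13, adjusted P = 0.457). Cxcr2, the receptor for neutrophil chemokines, had 6.1, 7.42, 6.29 and 6.76 against 5.4, 6.12 and 5.11 RPKM (log2 fold change -0.20, SE 0.11, adjusted P = 0.479). Retnlg did not overlap, and Itgam and Cxcr2 did. The G-CSF receptor Csf3r and the histone-modifying enzyme Padi4 had -0.30 and -0.54, and neither overlapped. Itgam shares an exon with Gm49368 on the same strand.

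The 5 tested mast cell and basophil genes had a median log2 fold change of 0.09 at E17.5, with 3 above 0 and 2 below, and none was called. Hdc, the enzyme that makes histamine, had 2.38, 4.18, 2.19 and 4.87 RPKM in wildtype and 4.4, 4.54 and 4.4 RPKM in Stab1-/- libraries (log2 fold change 0.45, SE 0.25, adjusted P = 0.471). Mcpt8, a protease of basophils, had 14, 12, 24 and 10 reads against 23, 27 and 15 reads (log2 fold change 0.62, SE 0.35, adjusted P = 0.483). Both overlapped between genotypes. Gata2, a transcription factor of mast cells, basophils and blood progenitors, had 1.25, 1.29, 1.74 and 1.69 against 1.2, 1.23 and 1.25 RPKM (log2 fold change -0.22, SE 0.19, adjusted P = 0.633), its highest Stab1-/- library just under its lowest wildtype library. The protease Cpa3 and the IgE receptor chain Ms4a2 had -0.08 and 0.09. Fcer1a, the IgE-binding chain that defines these cells, had at most 2 reads in any library and was not tested. The lipoxygenases make lipid mediators, Alox5 in neutrophils and mast cells and Alox15 in eosinophils and macrophages. Alox5 had 5.03, 5.01, 4.61 and 5.06 against 3.83, 4.53 and 3.4 RPKM (log2 fold change -0.27, SE 0.13, adjusted P = 0.423), without overlap. Alox15 had 1.23, 2.38, 1.89 and 3.33 against 1.65, 1.07 and 1.41 RPKM (log2 fold change -0.61, SE 0.31, adjusted P = 0.429), with overlap.

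**Figure D2:**
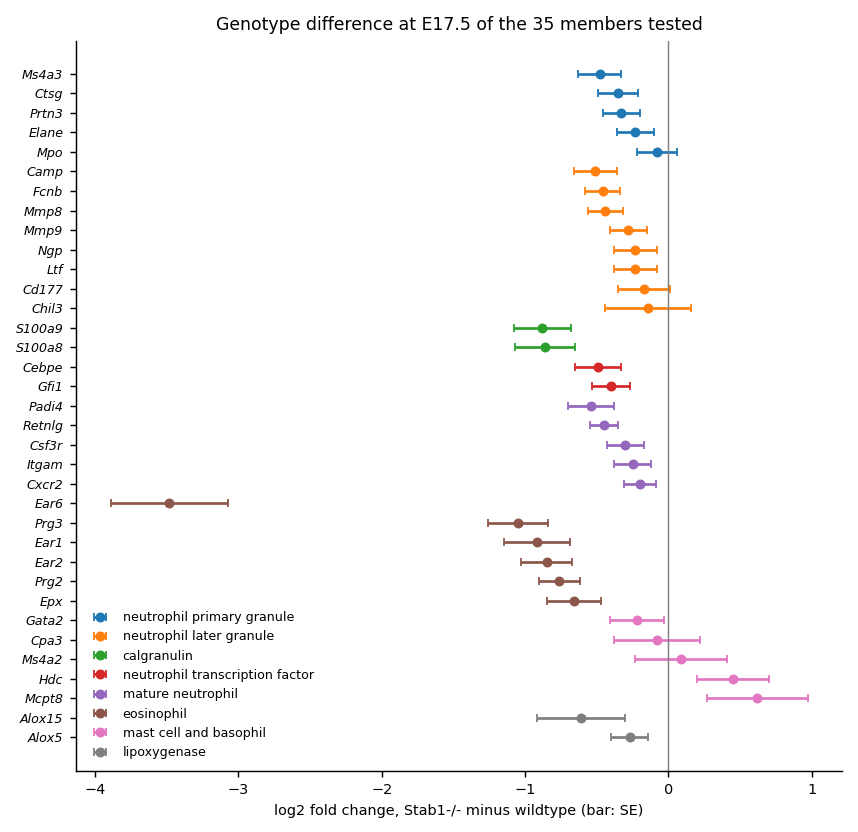
Log2 fold change of Stab1-/- minus wildtype at E17.5 for the 35 members tested, coloured by subgroup, with bars of 1 SE. Ear6 lies at -3.48, the other eosinophil genes and the calgranulins between -1.05 and -0.66, and Ms4a2, Hdc and Mcpt8 above 0.

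Other blood cell markers at E17.5 are given beside these values. The summed RPKM of 13 erythroid genes ranged from 15436 to 17307 in wildtype and from 13487 to 18605 in Stab1-/- libraries, and the median log2 fold change was -0.05 with 9 of 13 below 0. It was -0.17 for 6 megakaryocyte genes (6 below 0), -0.28 for 8 B lineage genes (7 below 0), -0.64 for 4 T and NK genes (3 below 0), -0.19 for 7 monocyte genes (5 below 0), 0.08 for 9 macrophage genes (1 below 0) and 0.10 for 8 hepatocyte genes (4 below 0). None of these genes was called at E17.5. Leaving out any 1 of the 7 libraries kept 31 or 32 of the 35 members below 0, with a median from -0.45 to -0.29.

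At 2 weeks most members were at a small fraction of their fetal level, and most values of the difference between genotypes lay above 0. Hdc kept 65.5% of its fetal mean RPKM in wildtype and 40.3% in Stab1-/-, and Ear2 kept 24.9% and 49.5%. Of 17 members with enough reads to be tested, 14 had a log2 fold change above 0, with a median of 0.48, where 48% of all 12716 genes tested lay above 0 and their median was -0.01. None was called at an adjusted P under 0.05 in either direction, against 0.936% of all genes called higher and 1.74% called lower. Without that adjustment, 8 members had P under 0.05 and were higher (S100a8, S100a9, Chil3, Camp, Ngp, Retnlg, Prg2 and Cxcr2) and none was lower, where 11.1% and 12.3% of all genes did so. In S100a8, S100a9 and Camp every Stab1-/- library lay above every wildtype library, which 10.4% of all genes did, and no member lay below throughout, which 4.5% did. These 3 genes are also among those the study listed as significantly higher in the postnatal Stab1-/- liver, while here they were not called. Both results come from these same libraries, so their direction is not independent evidence. The call depended on the method. DESeq2 called 2 of 17 members higher (Camp and Chil3) and 3.33% of all genes, edgeR without its filter called 4 of 36 and 1.1%, and a fit of all 15 libraries called 5 of 35 and 2.28%. It also depended on wildtype library 2, without which S100a8, S100a9, Ngp, Camp and Chil3 were called of 18 members tested, with 2.29% of all genes.

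S100a8 had 53.6, 55.3, 16.8 and 10.8 RPKM in the wildtype libraries at 2 weeks and 184, 81.5, 123 and 71.8 RPKM in the Stab1-/- libraries (log2 fold change 1.67, SE 0.42, adjusted P = 0.0574). S100a9 had 69.1, 67.2, 23.1 and 10.9 against 202, 95.5, 143 and 91.5 RPKM (log2 fold change 1.56, SE 0.43, adjusted P = 0.0757). Wildtype libraries 3 and 4 were low and libraries 1 and 2 were nearer to the lowest Stab1-/- libraries. Camp had 9.25, 10.1, 3.77 and 1.88 against 19.3, 13.7, 18 and 12.2 RPKM (log2 fold change 1.26, SE 0.36, adjusted P = 0.0777). Ngp had 6.74, 9.69, 3.76 and 4.62 against 12.7, 7.96, 14.7 and 8.64 RPKM (log2 fold change 0.74, SE 0.26, adjusted P = 0.129). Wildtype library 2 was the highest of its group in Camp and Ngp, and in Ngp it reached into the Stab1-/- range. Ltf had 1.67, 2.65, 1.41 and 1.5 against 1.96, 2.34, 2.98 and 2.92 RPKM (log2 fold change 0.42, SE 0.22, adjusted P = 0.281), and Chil3, log2 fold change 1.38, SE 0.37, adjusted P = 0.0706, also overlapped. Fcnb had 1, 2, 3 and 3 reads against 7, 10, 5 and 5 reads and did not have enough for the test. The Stab1-/- libraries of Fcnb all lay above those of wildtype, at levels near 3 reads.

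**Figure D3:**
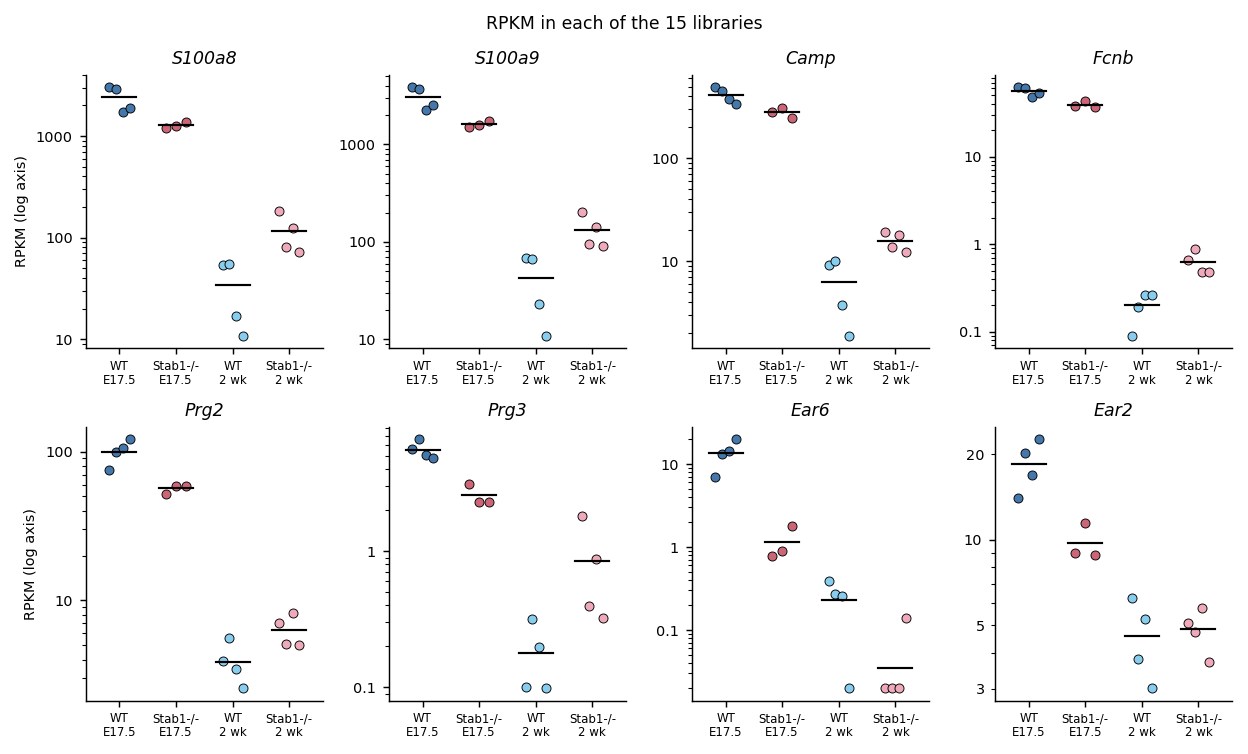
RPKM on a log axis in each library for the 6 members whose genotype difference was called to differ between stages, and for Ear6 and Ear2, with a point per library and a line at the group mean. Values of 0 are drawn at 0.02 RPKM. S100a8, S100a9 and Camp lie lower in every Stab1-/- library than in any wildtype library at E17.5 and higher at 2 weeks.

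Of the primary granule genes, Mpo and Prtn3 could be tested at 2 weeks, and neither was called. Mpo had 7, 19, 12 and 15 reads in wildtype and 10, 16, 19 and 20 reads in Stab1-/- libraries (log2 fold change 0.27, SE 0.34, adjusted P = 0.674). Prtn3 had 9, 19, 17 and 7 against 8, 17, 19 and 17 reads (log2 fold change 0.20, SE 0.37, adjusted P = 0.777). Elane had 5, 6, 6 and 9 against 6, 4, 10 and 5 reads and was not tested. All 3 overlapped, and Ctsg and Ms4a3 were at 7 reads or fewer throughout. Cebpe had 4, 5, 8 and 9 reads against 3, 0, 5 and 1 reads, and Gfi1 had 1, 6, 0 and 1 against 9, 2, 1 and 2 reads, with no test at this depth.

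Among mature neutrophil genes, Retnlg had 3.6, 3.14, 1.85 and 1.23 RPKM in wildtype and 4.49, 2.94, 6.62 and 3.87 RPKM in Stab1-/- libraries at 2 weeks (log2 fold change 0.78, SE 0.33, adjusted P = 0.183). Cxcr2 had 1.07, 0.663, 0.866 and 0.739 against 1.27, 1.03, 1.8 and 1.11 RPKM (log2 fold change 0.54, SE 0.23, adjusted P = 0.181), and Itgam had 0.816, 0.711, 0.885 and 0.621 against 0.823, 0.646, 0.575 and 0.768 RPKM (log2 fold change -0.20, SE 0.20, adjusted P = 0.573). All 3 overlapped between genotypes. Csf3r had a log2 fold change of 0.29, and Padi4 had 10 reads or fewer in every library.

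Of the eosinophil genes, Prg2 had 3.88, 5.54, 3.48 and 2.57 RPKM in wildtype and 7.02, 5.08, 8.28 and 5.02 RPKM in Stab1-/- libraries at 2 weeks (log2 fold change 0.63, SE 0.24, adjusted P = 0.145). Prg3 had 1, 3, 2 and 1 reads against 17, 4, 8 and 3 reads, with Stab1-/- library 1 the highest. Ear1 had 3, 4, 5 and 5 against 16, 5, 9 and 6 reads, again with Stab1-/- library 1 the highest. Ear2 kept more of its level than the others, at 6.27, 3.8, 5.26 and 3.01 against 5.1, 4.75, 5.78 and 3.73 RPKM (log2 fold change -0.01, SE 0.24, adjusted P = 0.979). Its genotypes overlapped fully. Hdc had 2.25, 1.74, 2.85 and 2.09 RPKM against 1.62, 1.15, 3.44 and 0.95 RPKM (log2 fold change -0.43, SE 0.34, adjusted P = 0.47), and Gata2 had 0.381, 0.464, 0.318 and 0.345 against 0.218, 0.406, 0.54 and 0.567 RPKM (log2 fold change 0.11, SE 0.32, adjusted P = 0.861). Mcpt8 had no read in the 4 wildtype and 1, 2, 2 and 0 reads in the Stab1-/- libraries. Alox5 had 3, 3, 4 and 1 against 6, 9, 6 and 3 reads and Alox15 4, 7, 11 and 6 against 5, 3, 15 and 7 reads, both too few to be tested.

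The difference between the genotype effects of both stages was then tested in a fit to all 15 libraries, as the log2 fold change at E17.5 minus that at 2 weeks. It was called for 6 of the 35 members tested, all negative, which 0.799% of the 13885 genes tested were, and none was positive, as 1.01% of them were. Without adjustment 20 members had P under 0.05 and were negative and none positive, where 12% and 11.1% of all genes did so. The median of the members was -0.92, with 31 of 35 below 0, beside a median of -0.01 with 50.6% below 0 over all genes. S100a8 differed by -2.55 on the log2 scale (SE 0.56, adjusted P = 0.0347) and S100a9 by -2.46 (SE 0.57, adjusted P = 0.0437). Camp differed by -1.80 (SE 0.41, adjusted P = 0.0381) and Fcnb by -2.00 (SE 0.44, adjusted P = 0.0345). The eosinophil genes Prg2 and Prg3 differed by -1.41 (SE 0.28, adjusted P = 0.027) and -3.18 (SE 0.64, adjusted P = 0.0291). Fcnb and Prg3 rest on 17 reads or fewer per library at 2 weeks, and all 4 wildtype libraries of that stage were at or under 3 reads in both. Neither passed the filter at 2 weeks, and they entered this fit through their fetal libraries. The sizes of their 2 values are therefore uncertain.

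Ear1 stood just outside the threshold, at -1.99 (adjusted P = 0.0522), and Prg2 is the member with the lowest P inside it. The remaining named members were not called, with values for Ngp of -0.99 (adjusted P = 0.0987), Ltf -0.68, Retnlg -1.25, Cxcr2 -0.77, Mpo -0.38 and Itgam -0.08. Hdc (0.85) and Cebpe (0.99) were among the 4 members above 0. For Ear6 the SE of 3.02 left the difference between stages undetermined. These calls turn on single libraries. No member was called (edgeR, with 16 to 20 of 35 at an unadjusted P under 0.05) without Stab1-/- library 1 or wildtype library 3 of 2 weeks, or without Stab1-/- library 1 or wildtype library 2 of E17.5. A single member, Prg2, was called without wildtype library 1 of E17.5, and 2 and 3 members without Stab1-/- libraries 2 and 3 of 2 weeks. The sign of all 6 log2 values held throughout. Shares of all genes called in these smaller fits are not given here. Whether calls were lost over all genes as well can therefore not be told.

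Markers of other cells moved with the difference between stages too. Of 7 monocyte genes, the chemokine receptors Ccr2 (-1.41, adjusted P = 0.0493) and Cx3cr1 (-1.23, adjusted P = 0.0453) were called with the negative sign of the 6 members. Fibronectin (Fn1, 1.02, adjusted P = 0.0461) was called with the opposite sign. Ccr2 had genotype log2 fold changes of -0.76 at E17.5 and 0.61 at 2 weeks. Cx3cr1 lay above 0 at both stages, at 0.65 (adjusted P = 0.0631) at E17.5 and 1.84 at 2 weeks, so its sign did not turn. The eotaxin receptor Ccr3, an eosinophil gene outside the members, was called as well (-2.65, adjusted P = 0.0458). The median was -0.52 over the 7 monocyte genes (5 below 0), -0.56 over 5 T and NK genes (5 below 0), -0.40 over 6 megakaryocyte genes (4 below 0), -0.12 over 9 macrophage genes (7 below 0), 0.01 over 13 erythroid genes (6 below 0), 0.07 over 8 B lineage genes (2 below 0) and 0.27 over 8 hepatocyte genes (2 below 0). Apart from the 3 monocyte genes, none of these was called. The summed RPKM of the monocyte genes was 373 to 473 in wildtype and 413 to 546 in Stab1-/- libraries at E17.5, and 323 to 423 against 247 to 307 at 2 weeks, with Fn1 as most of the sum. The sum therefore follows Fn1, and which liver cells gave the reads of Fn1 was not tested. At 2 weeks Fn1 had a genotype log2 fold change of -0.55 (adjusted P = 0.0888), where 4 of the 6 tested monocyte genes lay above 0 and 2 below. For the T and NK genes the summed RPKM was 12.1 to 15.6 against 9.91 to 11.5 at E17.5, and 7.28 to 10.1 against 8.94 to 11.3 at 2 weeks. The part of these cells in the members' difference between stages was not tested.

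**Figure D4:**
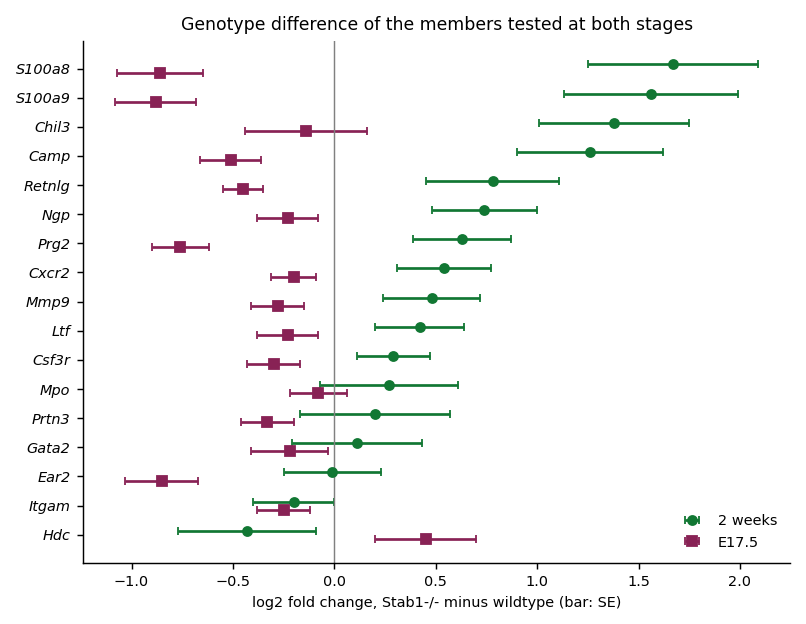
Log2 fold change of Stab1-/- minus wildtype at 2 weeks (circles) and at E17.5 (squares) for the 17 members tested at both stages, with bars of 1 SE. S100a8 lies at 1.67 and -0.86, Prg2 at 0.63 and -0.76, and Itgam at -0.20 and -0.25.

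Sequence before the starts of S100a9 and Prg3, a neutrophil and an eosinophil gene of the called 6, shows the C/EBP motif that many members hold. The 140 bases before the RefSeq start on GRCm38.p6 are given 5′ to 3′ along the gene, with matches to TTNNGNAA or its reverse complement in capitals.
S100a9: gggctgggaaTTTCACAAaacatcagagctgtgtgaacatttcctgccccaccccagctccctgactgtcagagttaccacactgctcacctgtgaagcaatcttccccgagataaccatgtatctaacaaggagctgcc
Prg3: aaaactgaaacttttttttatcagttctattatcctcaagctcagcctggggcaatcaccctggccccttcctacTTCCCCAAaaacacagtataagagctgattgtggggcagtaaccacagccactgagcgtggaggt
The windows are chr3:90695722-90695861, minus strand (S100a9) and chr2:84988075-84988214, plus strand (Prg3), and each holds 1 match. A total of 34 of the 38 members had a promoter entry in RefSeq, all but Prg2, Mmp9, Cebpe and Alox15. Within 250 bases before the start, on either strand, TTNNGNAA occurred in 19 of the 34, and in 36.9% of 27025 promoters. It occurred in 6 of 7 later granule genes, both calgranulins and 5 of 6 eosinophil genes, but in 1 of 5 primary granule genes (Ms4a3). The 5 eosinophil genes are Prg3 and the Ear genes Ear1, Ear2, Ear6 and Ear10. The Ear genes are near copies before their starts too, so the counts of eosinophil genes for any motif are not those of independent promoters. The PU.1 letters GAGGAA occurred in 15 of the 34 and 23.1% of all promoters, with 4 of 5 primary granule genes and none of the 6 eosinophil genes. The GATA letters AGATAA occurred in 6 of the 34 and 10.3% of all promoters, with 3 of 6 mast cell and basophil genes and none of the 6 eosinophil genes. They also occurred in 2 of 7 later granule genes and 1 of 2 calgranulins. A match is a run of letters and does not show that a factor binds there.

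From E17.5 to 2 weeks nearly all tested members fell in both genotypes. Of 34 members tested, 33 were called lower in wildtype, where 37% of 13369 genes were called lower and 34.9% higher, and 34 of 34 in Stab1-/-, where 36.8% of 13433 genes were called lower and 35.7% higher. Most of these passed the filter through their fetal libraries alone, so their number is not a share of all members. Scaling by library totals moved the median log2 fold change of all genes from -0.01 to -0.38 in wildtype and from -0.01 to -0.24 in Stab1-/- and made 31.2% and 38.7% of the calls higher, in place of 48.5% and 49.2%, with all 34 members tested below 0 in each genotype.

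Mpo went from a mean of 98 to 0.498 RPKM in wildtype (log2 fold change -7.25, SE 0.23, adjusted P = 1.23e-10), and the 5 primary granule genes had log2 fold changes from -7.25 to -5.61. The later granule genes had -7.68 (Fcnb) to -4.51 (Mmp9). The calgranulins fell by 5.80 (S100a8) and 5.84 (S100a9) on the log2 scale in wildtype, and by 3.26 and 3.40 in Stab1-/-. Mature neutrophil genes ranged from -4.48 for Padi4 to -2.18 for Csf3r in wildtype. The RPKM of S100a8 was 16.2 to 38.2 times that of Mpo in wildtype libraries at E17.5 and 19.7 to 206 times at 2 weeks. In Stab1-/- libraries it was 12.2 to 17.8 against 89.8 to 466 times. Mpo fell most of the primary granule genes and had 7 to 20 reads per library at 2 weeks, so this ratio does not stand for the subgroup. Prtn3 fell less than S100a8 in wildtype, with a log2 fold change of -5.61, and more than S100a8 in Stab1-/-, with -5.06.

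Of the eosinophil genes, Ear2 fell by 1.64 on the log2 scale in wildtype (adjusted P = 2.09e-05) and by 0.80 in Stab1-/- (adjusted P = 0.00438), where Prg2 fell by 4.33 and 2.94. At 2 weeks the wildtype libraries had 47, 27, 40 and 23 reads on Ear2 and 3, 4, 5 and 5 reads on Ear1. Hdc was the member not called in wildtype (log2 fold change -0.24, SE 0.26, adjusted P = 0.431), and in Stab1-/- it was called (log2 fold change -1.10, SE 0.34, adjusted P = 0.0118). Mcpt8 had no read in the wildtype libraries at 2 weeks, and its fetal level there was at least 4.84-fold higher than the level that 3 reads per library would give. The stage comparisons share libraries with the genotype comparisons, so they hold no further evidence on genotype.

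**Figure D5:**
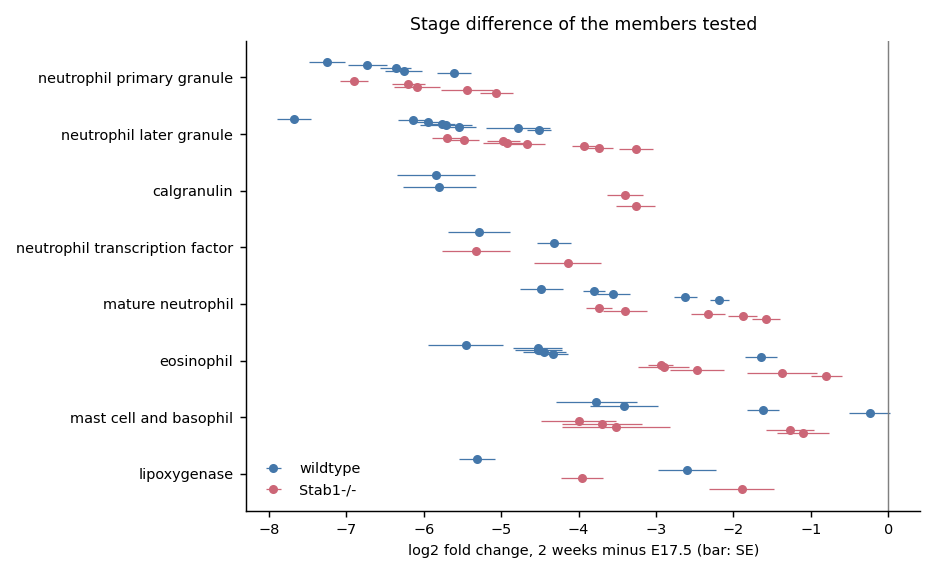
Log2 fold change of 2 weeks minus E17.5 for the members tested in wildtype (blue) and in Stab1-/- (red) by subgroup, with a point per gene and bars of 1 SE. Primary granule genes lie between -7.25 and -5.06, and mature neutrophil genes between -4.48 and -1.58.

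Further genes of these cells, outside the list of members, were counted for comparison. Of 25 other neutrophil genes, 24 had log2 fold changes below 0 at E17.5 with a median of -0.38, 13 of 19 tested lay above 0 at 2 weeks, and 3 were called for the difference between stages. These were Slfn4 (-1.92, adjusted P = 0.0263), the stefin BC100530 (-2.32, adjusted P = 0.0358) and annexin A1 (Anxa1, -1.17, adjusted P = 0.0245). Among 6 other eosinophil genes in the table, only 1 could be tested at 2 weeks, the eotaxin receptor Ccr3. It was called higher in Stab1-/- (log2 fold change 1.58, SE 0.29, adjusted P = 0.0157). Its means were 0.383 RPKM in wildtype and 1.23 RPKM in Stab1-/- libraries, and it was near 0 at E17.5. From E17.5 to 2 weeks Ccr3 rose in Stab1-/- (log2 fold change 4.53, SE 0.45), where the 5 tested eosinophil members fell. In wildtype that stage difference was not tested for Ccr3. Of 16 other mast cell and basophil genes in the table, 3 could be tested at 2 weeks and 4 at E17.5, and none of these was called between genotypes.

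Among the growth factors and receptors that govern these lineages, the IL-3 receptor chain Il3ra was called higher in Stab1-/- at 2 weeks (log2 fold change 0.96, SE 0.17, adjusted P = 0.0145) and had 0.66 (adjusted P = 0.134) at E17.5. The other 7 of the 8 tested were not called at either stage. None of 4 tested neutrophil chemokines and none of the tested myeloid transcription factors (9 at 2 weeks, 11 at E17.5) was called, with Cebpa at 0.36 (adjusted P = 0.213) at 2 weeks and -0.03 at E17.5. Of the markers of other cells at 2 weeks, the monocyte gene Cx3cr1 was called higher (1.84, SE 0.29, adjusted P = 0.00787), and no tested erythroid, megakaryocyte, lymphoid, macrophage or hepatocyte gene of the lists was called. The median log2 fold change at 2 weeks was 0.23 for 9 macrophage genes (8 above 0), 0.22 for 6 monocyte genes (4 above 0), 0.21 for 4 T and NK genes (3 above 0), 0.05 for 3 megakaryocyte genes (2 above 0), -0.17 for 10 erythroid genes (3 above 0), -0.29 for 8 hepatocyte genes (2 above 0) and -0.40 for 4 B lineage genes (none above 0). The part of these other cells in the members' values was not tested.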

How the data were processed

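RNA from livers of Stab1-/- and wildtype mice at 2 weeks and E17.5 was extracted with a NucleoSpin RNA kit and sequenced at BGI. Aligner, genome build and strand of counting are not given in the sources used here. The authors deposited counts of uniquely mapped reads per gene (a dash stands for none) and RPKM, which could be recomputed from the counts and gene lengths. A deposited coverage column was not used.

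The test was the two-sided quasi-likelihood test of edgeR (version 4.0.16, R 4.3.3) with TMM scaling and the filter filterByExpr (10 reads in enough libraries, 15 in total). Benjamini-Hochberg adjustment ran over all genes tested, and genes under 0.05 are called. Comparisons were Stab1-/- minus wildtype at each stage, 2 weeks minus E17.5 in each genotype, and the difference of the genotype effects in a fit to all 15 libraries. Libraries of a group differed by more than sampling noise (chi-square per degree of freedom of 5.41 or more). Levels of 3 reads or fewer were taken as undetected, which covers counting error only. With a depth of 9659 to 10964 (in units of 1000 reads), genes under about 10 reads were not tested.

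Alternatives were DESeq2 1.42.0, median-of-ratios and library-total scaling, no filter, the replicate number as a block, 1 fit of all libraries, leaving out each library, and, added after seeing the data, offsets for GC content, alone and together with the block. The fits were tested on simulated data. Positions and transcripts are from GENCODE vM21 on GRCm38 and promoters from RefSeq. Values in every library are given for members called in a genotype comparison or in the interaction and for the 3 members of each subgroup with the highest mean RPKM, and others by range and count. Genes of other lists were named only where called in a genotype comparison or in the interaction, or where among the 2 highest of their list. Not all of the latter were named. The members and lists were chosen with earlier results of these data known. The sequences shown, and the values beside chromosome 14, were chosen after the values were seen.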

Additional observations from a re-analysis of the deposited data

Results flagged for a closer look

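The genotype log2 fold change at E17.5 minus that at 2 weeks differed from 0 by the interaction test for 6 members, at -2.55 for S100a8, -2.46 for S100a9, -1.80 for Camp, -2.00 for Fcnb, -1.41 for Prg2 and -3.18 for Prg3. Each was lower in the 3 Stab1-/- libraries than in the 4 wildtype libraries at E17.5. At 2 weeks S100a8, S100a9, Camp and Fcnb were higher in all 4 Stab1-/- libraries than in any wildtype library, and Prg3 had 17 reads in Stab1-/- library 1 against 3 to 8 reads in the other Stab1-/- libraries. All 4 wildtype libraries of that stage were at or under 3 reads in Fcnb and Prg3.

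In 72 groups of 4 libraries that were looked at, 5 held 1 library apart from the rest of its group, where chance gives about 1 in 20, or 3.6. Mpo was at 76.4 RPKM in wildtype library 2 of E17.5, with the nearest at 103. Alox5 was at 4.61 RPKM in wildtype library 3 of E17.5, with the nearest at 5.01. Gfi1 was at 0.211 RPKM in wildtype library 2 of 2 weeks and at 0.319 RPKM in Stab1-/- library 1 of 2 weeks, with the nearest at 0.0334 and 0.0718, and these are 6 and 9 reads. Ear6 was at 0.139 RPKM, which is 1 read, in Stab1-/- library 4 of 2 weeks, where the others had 0.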

How the results depend on the processing

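At 2 weeks no member was called higher, beside 0.936% of all genes. Members called were 4 without the filter (1.1% of all genes), 5 with all libraries in 1 fit (2.28%) and 2 with DESeq2 (3.33%). The replicate block gave 4, the block with GC-content offsets 3, and leaving out each library 0 to 5. At E17.5, 1 member was called lower (0.172% of all genes), and DESeq2 called 8 (0.839%). GC-content offsets called 2 there, these with the replicate block 2, and leaving out each library 1 to 2. For the difference between stages 6 members were called (0.799% of all genes with that sign). It was 0 to 9 when each library was left out, and the replicate block gave 7. Shares of all genes are not given here for the block, the GC-content offsets or most fits without 1 library. Those counts are therefore not set against all genes. The counts of both stage comparisons stayed within 1.5 times under all alternatives run. Same-numbered libraries of both genotypes had correlations of -0.178 to 0.166, and 2 of 7 Stab1-/- libraries correlated best with their own number. They were 0.166, -0.0118, 0.0956 and 0.114 at 2 weeks, and -0.0274, -0.126 and -0.178 at E17.5. No clear pairing by number was seen, and weak correlations of this kind cannot exclude one. Signs turned for 6 values. These were Ear2 at 2 weeks (0.08 with library totals, 0.00 with the replicate block and 0.00 with all libraries in 1 fit, and -0.16 to 0.16 when each library was left out), and, over the libraries left out, Gata2 at 2 weeks (-0.07 to 0.35) and Mpo at E17.5 (-0.18 to 0.03). For the difference between stages they were Elane (-0.38 to 0.14), Itgam (-0.26 to 0.03) and Ear6 (-1.58 to 0.60, around a value of -1.12 with an SE of 3.02), again over the libraries left out. Of the other 1721 values of single members, 1643 kept sign and side of the threshold, 36 came to pass it and 42, all without 1 library, no longer did. The cause was not tested. Scaling by library totals made 53.7% of calls at 2 weeks higher in place of 35%, 40.7% in place of 53.1% at E17.5, and 28.4% in place of 55.8% for the difference between stages. Fewer reads limited the 2-week tests, in which 20 of 37 members did not pass the filter.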
